A study of Mus musculus with 12 samples.

Results

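Integrins and laminins are the receptors and the sheet-forming ligands by which cells hold on to a basement membrane. Their genes were followed here in the livers of the NICD1/Akt mouse model of cholangiocarcinoma (CCA), a cancer of bile duct cells. Protein-coding genes were taken by symbol (Itga and Itgb genes, and the Lama, Lamb and Lamc genes, without the Itgb1bp genes), and they counted as members where at least 3 of the 12 libraries reached 0.5 CPM (counts scaled to a common library total). Of 40 genes with such a symbol, 38 were members, out of 21807 genes in the tables and 13938 genes at the same limit. Itgad and Itgb2l, both chains of leukocyte integrins, did not reach it. The members fell into 6 epithelial integrin chains, 11 integrin chains that mostly bind matrix, 8 chains of leukocytes and platelets, 11 laminin chains, and 2 genes that only carry an integrin-like name, Itgbl1 and Itgb3bp.

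An integrin is a pair of an α and a β chain that spans the membrane, binds matrix or another cell outside and connects to the cytoskeleton inside. A laminin is a cross-shaped trimer of an α, a β and a γ chain that assembles under epithelia and around vessels. In the healthy liver a laminin-rich basement membrane surrounds bile ducts and larger vessels, whereas hepatocytes border on a sinusoid without a continuous one, and bile duct cells rather than hepatocytes carry integrins such as α6β4.

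The groups were NICD1/Akt livers 3 weeks after hydrodynamic tail vein injection (HTVi), WT control livers of 3 weeks, NICD1/Akt livers 2 weeks after HTVi and WT control livers of 2 weeks, with 3 libraries in each. All mice were of the C57BL/6J strain and, by the study's methods, male and 5 weeks old at injection. NICD1/Akt mice received plasmids for the intracellular domain of Notch1 (NICD1), for myristoylated AKT (myr-AKT) and for the Sleeping Beauty transposase, which inserts them into the genome of the liver cells that take them up. The labels call their tissue liver with CCA tumor, and the protocol speaks of excised tumors. The controls received no injection, although their labels also count weeks after HTVi. The comparison therefore sets tumor tissue with both oncogenes against whole normal liver, and injection, oncogenes and the kind of tissue taken cannot be told apart. No source says that each library came from a separate mouse, so p-values measure the spread between libraries. In bulk tissue fewer cells of a type and less RNA per cell cannot be told apart.

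Total counts were 13136892 to 19594839 per library. Akt1 and Notch1, whose counts can include reads of the plasmids, separated NICD1/Akt from control at 3 weeks but not at 2 weeks, where the control library numbered 32 had 381 CPM of Akt1 and 106 CPM of Notch1 in place of 89.9 to 90.6 CPM and 48.9 to 53.6 CPM in control libraries 30 and 31 (CPM scaled over all 12 libraries). The same library had 2026 CPM summed over 8 bile duct markers, against 86.9 and 89.0 CPM in libraries 30 and 31. Most of this sum was 1 gene, Spp1, with 1871 CPM in library 32, against 56.4 and 53.6 CPM in libraries 30 and 31. Library 32 therefore stood apart from its label. Since groups were taken from the labels, it is kept as a control, and results that rest on it are given with and without it. Among the NICD1/Akt libraries of 2 weeks, library 35 stood apart with 4669 CPM of the bile duct markers, against 1171 and 1355 CPM in libraries 33 and 34. Spp1 alone had 4245 CPM in library 35, against 1054 and 1234 CPM in libraries 33 and 34. Ddx3y, a Y-linked gene, had 52.4 to 126 CPM in the libraries of 3 weeks and in library 32 and 0 to 0.40 CPM in the 5 remaining libraries of 2 weeks, which goes against male mice in those 5 libraries, so sex and stage cannot be told apart in any comparison between stages.

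The 5′ ends of some members are shown because members of several classes moved together, and because NICD1 acts through the DNA-binding protein RBPJ. RefSeq promoters (build GRCm38.p6, 250 bases before to 50 bases after a start) were found for 25 of the 38 members, with 28 promoters in all. They were searched on both strands for TGGGAA, the core bound by RBPJ, for GGAATG, bound by TEAD factors, and for TGANTCA, bound by AP-1. TGGGAA and GGAATG can overlap, since the last bases of one are the first of the other. TGGGAA stood in 5 of the 28 promoters (17.9%) and in 25.6% of all 32851 promoters in the table, GGAATG in 3 (10.7%) and in 14.7% of all, and TGANTCA in 3 (10.7%) and in 7.81% of all. 4 of these promoters follow, with motif letters in capitals: those of Itgb6 and Itgb8, the members found there with the largest fold changes at 3 weeks, held none of the motifs, that of Lamb1 held TGGGAA at 2 places, with first bases at -239 and -201 from the start, and a Lamb3 promoter held GGAATG and TGGGAA overlapping on the reverse strand, with first bases at -167 and -165.
Itgb6 (chr2:60722554-60722853, minus strand): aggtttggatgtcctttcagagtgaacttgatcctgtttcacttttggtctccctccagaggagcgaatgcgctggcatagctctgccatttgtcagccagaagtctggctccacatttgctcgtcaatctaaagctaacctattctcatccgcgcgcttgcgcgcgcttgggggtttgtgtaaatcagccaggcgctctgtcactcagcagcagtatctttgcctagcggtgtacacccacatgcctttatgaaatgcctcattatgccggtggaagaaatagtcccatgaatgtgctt
Itgb8 (chr12:119238227-119238526, minus strand): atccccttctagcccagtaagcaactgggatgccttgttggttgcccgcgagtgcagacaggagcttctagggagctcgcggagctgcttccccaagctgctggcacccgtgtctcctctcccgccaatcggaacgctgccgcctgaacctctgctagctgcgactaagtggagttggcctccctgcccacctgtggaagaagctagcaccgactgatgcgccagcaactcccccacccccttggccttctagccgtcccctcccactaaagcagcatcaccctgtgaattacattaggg
Lamb1 (chr12:31265043-31265342, plus strand): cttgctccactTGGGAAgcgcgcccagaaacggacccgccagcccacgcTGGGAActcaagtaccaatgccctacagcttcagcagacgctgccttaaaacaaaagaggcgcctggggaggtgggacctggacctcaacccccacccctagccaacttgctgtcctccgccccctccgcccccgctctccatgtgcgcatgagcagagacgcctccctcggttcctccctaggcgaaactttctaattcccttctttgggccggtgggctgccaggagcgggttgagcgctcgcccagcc
Lamb3 (chr1:193301993-193302292, plus strand): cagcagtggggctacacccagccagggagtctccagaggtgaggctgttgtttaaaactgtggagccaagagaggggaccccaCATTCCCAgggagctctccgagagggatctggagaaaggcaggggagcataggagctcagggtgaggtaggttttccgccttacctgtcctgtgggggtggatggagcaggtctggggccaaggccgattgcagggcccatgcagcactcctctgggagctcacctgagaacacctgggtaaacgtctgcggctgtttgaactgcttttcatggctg

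At 3 weeks, the advanced stage, integrin and laminin genes were higher in NICD1/Akt livers as a group. In the fit over all 13408 genes tested (edgeR quasi-likelihood test, adjusted p under 0.05), 33 of the 38 members were higher and 2 lower, Lama3 and Itga2b, and 3 were not called, whereas 38.9% of all genes tested were higher and 33.1% lower. The median log2 fold change of NICD1/Akt over control was 1.84 over the members and 0.06 over all genes tested. The groups did not overlap for 35 members, 33 of them higher and 2 lower in NICD1/Akt, against 41.3% and 35.5% of all genes tested. With library size alone as the scaling, the median over all genes tested shifted by 0.71 on the log2 scale, which turned the split of all genes to 67.7% higher and 9.60% lower, and the members then had 34 higher and 1 lower. With the 5 controls of both stages other than library 32 as the reference, 24 members were higher and 1 lower, against 30.4% and 21.4% of all genes tested, and Itga1, Itga4, Itga8, Itga10, Itgae, Itgb3, Itgb3bp, Itgb5, Itgb7 and Lama3 were no longer called. That reference adds control libraries 30 and 31, which differ in stage and had no Ddx3y count, so stage and sex enter it. The markers of other cells moved at the same stage: all 6 bile duct markers tested (of 8 in the list) and 6 of 8 markers of stellate cells and fibroblasts were higher and all 7 hepatocyte markers lower. Summed bile duct markers were 3455 to 4071 CPM in NICD1/Akt livers and 92.7 to 135 CPM in controls, summed markers of stellate cells and fibroblasts 2521 to 3432 CPM in NICD1/Akt livers and 208 to 306 CPM in controls, and summed hepatocyte markers 23932 to 35735 CPM in NICD1/Akt livers and 100302 to 105227 CPM in controls, and their part in the members' changes was not tested.

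**Figure D1:**
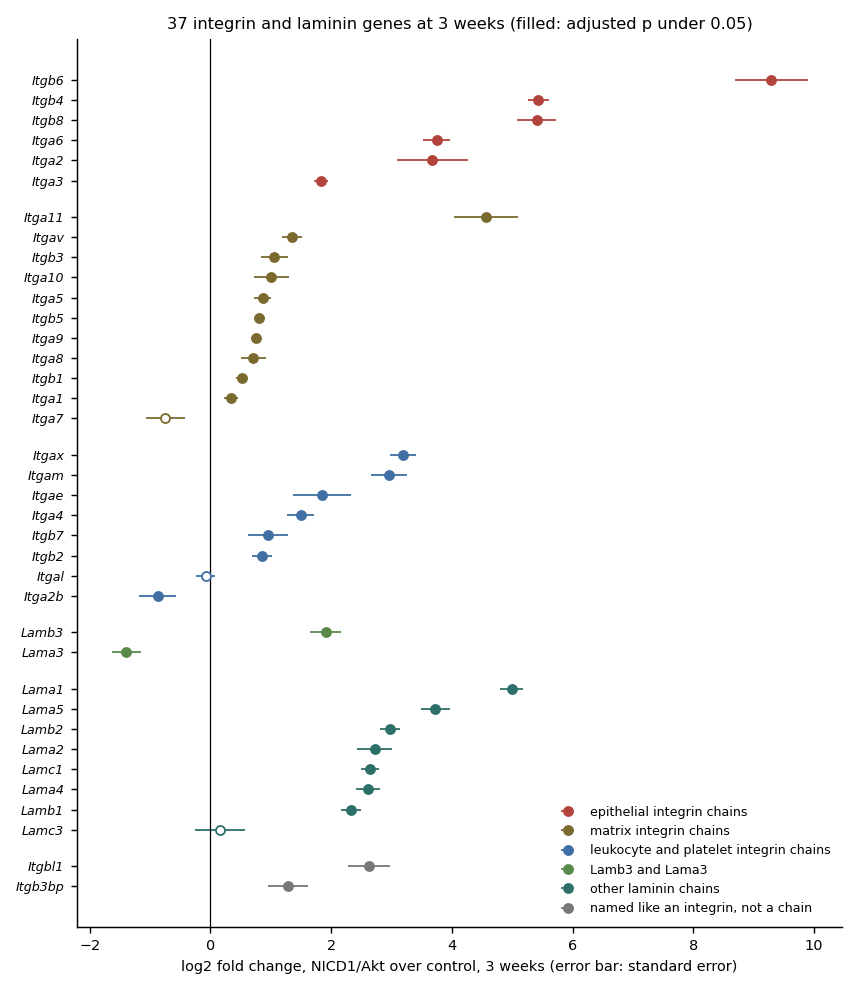
Log2 fold change of NICD1/Akt over control at 3 weeks (x axis) for 37 members, grouped by class, with points as estimates from 3 libraries a group, bars as standard errors and filled points for adjusted p under 0.05. The 6 epithelial integrin chains lie between 1.84 and 9.29, most matrix chains lie between 0.35 and 1.35, and Lama3 and Itga2b are the filled points left of 0.

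All 6 epithelial integrin chains rose, and they included the largest fold changes of the members. Their log2 fold changes were 1.84 to 9.29 with a median of 4.58. Itgb4, the β chain that pairs only with α6 and anchors epithelia through hemidesmosomes, had 56.5, 68.5 and 61.5 CPM in NICD1/Akt libraries, against 1.04, 1.40 and 1.85 CPM in controls. The lowest NICD1/Akt library lay far above the highest control, and the log2 fold change was 5.43 ± 0.18 (SE, n = 3 each, adjusted p = 2.09e-07). Itga6, its α partner, had 38.8, 43.7 and 38.1 CPM in NICD1/Akt libraries, against 4.34, 1.92 and 2.7 CPM in controls. The log2 fold change of Itga6 was 3.75 ± 0.22 (adjusted p = 2.65e-06).

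Itgb8 and Itgb6 encode the β chains of αvβ8 and αvβ6, epithelial integrins that release active TGF-β from its latent complex. Itgb8 had 34.7, 58.1 and 46.7 CPM in NICD1/Akt libraries, against 0.521, 1.57 and 1.18 CPM in controls, with a log2 fold change of 5.40 ± 0.32 (adjusted p = 2.48e-06). Itgb6 had 4.44, 4.71 and 4.43 CPM in NICD1/Akt libraries and no count in any of the 3 control libraries. Against a floor of 3 counts over the control group Itgb6 was at least 52.6-fold higher (adjusted p = 2.72e-05), and its fitted log2 value of 9.29 depends on the prior count. At the bound, 5.72 on the log2 scale, Itgb6 still headed the class, so the class median was the same. Itga3, which pairs with β1 and binds laminin, had 35, 41.5 and 33.2 CPM in NICD1/Akt libraries, against 10.5, 10.3 and 9.86 CPM in controls, with a log2 fold change of 1.84 ± 0.12 (adjusted p = 3.91e-06). Itga2, a collagen-binding chain, had 9.92, 11.1 and 6.82 CPM in NICD1/Akt libraries, against 0.608, 1.57 and 0 CPM in controls (log2 fold change 3.68 ± 0.58, adjusted p = 0.000566).

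**Figure D2:**
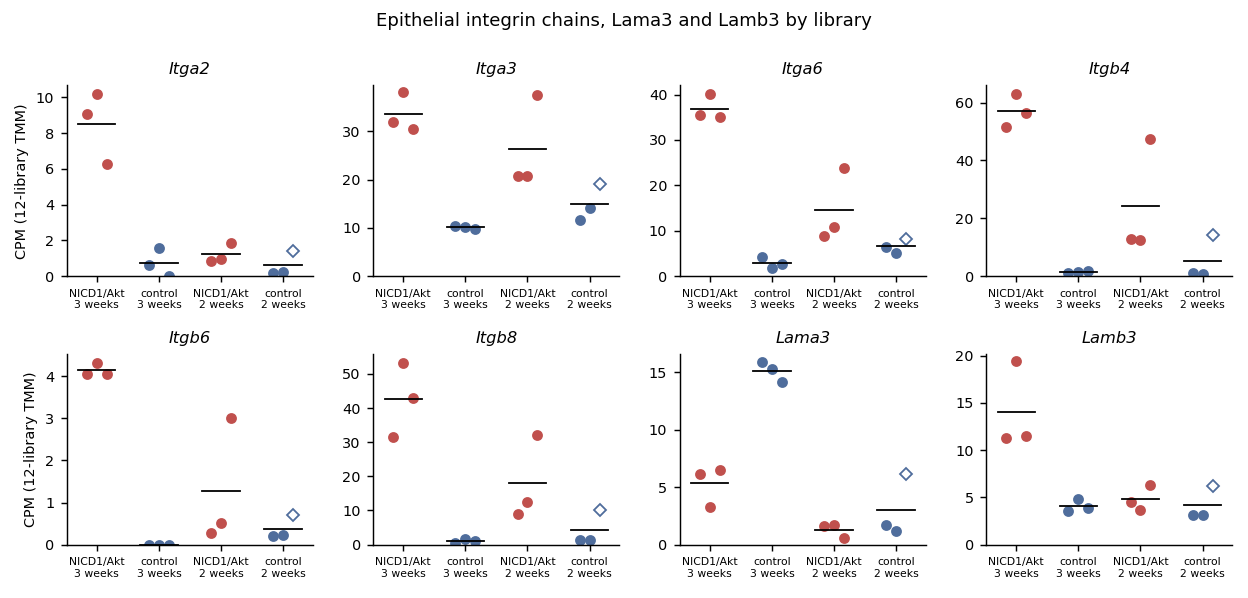
CPM scaled over all 12 libraries (y axis, from 0) for the 6 epithelial integrin chains and for Lama3 and Lamb3, with a point for each library, a black line at the group mean and an open diamond for control library 32. In the 3-week groups the red NICD1/Akt points lie above the blue control points in each panel except Lama3, and at 2 weeks NICD1/Akt library 35 is the highest point in each panel except Lama3.

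Lamb3 and Lama3, chains of epithelial laminins that α6β4 and α3β1 bind, moved in opposite directions. Lamb3, the β3 chain, had 12.4, 21.1 and 12.5 CPM in NICD1/Akt libraries, against 3.56, 4.81 and 3.88 CPM in controls, and rose by 1.91 ± 0.26 on the log2 scale (adjusted p = 0.000229). Lama3, the α3 chain, ran the other way, with 6.77, 3.59 and 7.08 CPM in NICD1/Akt libraries, against 16.0, 15.4 and 14.3 CPM in controls, and its log2 fold change was -1.40 ± 0.24 (adjusted p = 0.00088). The groups did not overlap for either gene. The fall of Lama3 rested on the 3-week controls: with the 5 controls of both stages other than library 32 as the reference its log2 fold change was -0.74 (adjusted p = 0.48). Stage and sex also differ within that reference.

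Of the 8 chains Lama1, Lama2, Lama4, Lama5, Lamb1, Lamb2, Lamc1 and Lamc3, 7 rose, with log2 fold changes of 2.33 to 4.99, and only Lamc3 was not called. Lama1, an α chain of early embryonic basement membranes, had 96.1, 115 and 90.1 CPM in NICD1/Akt libraries, against 2.17, 3.85 and 3.46 CPM in controls, with a log2 fold change of 4.99 ± 0.19 (adjusted p = 3.90e-07). Lama5, the main α chain of mature epithelial basement membranes, had 128, 116 and 68.7 CPM in NICD1/Akt libraries, against 7.73, 7.87 and 8.01 CPM in controls. Its log2 fold change was 3.73 ± 0.24 (adjusted p = 3.94e-06). Lamc1, the γ chain of most laminins, had 229, 222 and 165 CPM in NICD1/Akt libraries, against 31.4, 31 and 35.7 CPM in controls (log2 fold change 2.65 ± 0.15, adjusted p = 1.96e-06).

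Both β chains that join these trimers moved the same way as Lamc1. Lamb2 had 77.5, 64.9 and 54.9 CPM in NICD1/Akt libraries, against 7.38, 7.96 and 9.86 CPM in controls (log2 fold change 2.97 ± 0.16, adjusted p = 1.90e-06). Lamb1 had 56, 45.2 and 38.8 CPM in NICD1/Akt libraries, against 7.99, 9.53 and 10.3 CPM in controls (log2 fold change 2.33 ± 0.16, adjusted p = 6.32e-06). Lama4, the α chain of vessels, averaged 50.1 ± 6.54 CPM in NICD1/Akt livers and 8.18 ± 2.49 CPM in controls (SD, n = 3 each), with a log2 fold change of 2.61 ± 0.20 (SE). Lama2, the α chain of muscle and nerve, averaged 24.2 ± 3.12 CPM in NICD1/Akt livers and 3.65 ± 1.90 CPM in controls, and its log2 fold change was 2.72 ± 0.29. Summed markers of smooth muscle were 67.1 to 92.9 CPM in NICD1/Akt livers and 14.4 to 29.5 CPM in controls, those of endothelium outside the sinusoids 165 to 175 CPM in NICD1/Akt livers and 92.0 to 99.9 CPM in controls, and those of sinusoidal endothelium 114 to 140 CPM in NICD1/Akt livers and 221 to 245 CPM in controls, and their part in these results was not tested. The γ3 chain stood apart from these genes. Lamc3 averaged 1.80 ± 0.84 CPM in NICD1/Akt livers and 1.61 ± 0.34 CPM in controls, with a log2 fold change of 0.16 ± 0.42 (adjusted p = 0.75).

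Levels of different laminin genes were compared per kilobase of exon, on the scale of all 12 libraries. Among the α chains in NICD1/Akt livers of 3 weeks, Lama1 averaged 9.51 ± 1.25 and Lama5 8.39 ± 2.51 CPM per kb (SD, n = 3), values that did not differ beyond their spread, followed by Lama4 with 3.81 ± 0.48, Lama2 with 1.36 ± 0.17 and Lama3 with 0.50 ± 0.16 CPM per kb. In the controls of 3 weeks the order was another, and Lama3 had the highest mean with 1.41 ± 0.08 CPM per kb. Then came Lama5 with 0.69 ± 0.01 and Lama4 with 0.67 ± 0.20, which did not differ beyond their spread. Lama1 followed with 0.32 ± 0.09 and Lama2 with 0.22 ± 0.11 CPM per kb. This order did not hold in the controls of 2 weeks, where Lama3 had the lowest mean with 0.28 ± 0.25 CPM per kb. There Lama1 averaged 1.38 ± 0.48, Lama5 1.25 ± 0.58, Lama4 0.93 ± 0.18 and Lama2 0.58 ± 0.34 CPM per kb. Those means include the control library that stood apart from its label, and several overlapped within their spread. Lamc1 was the highest laminin gene in every group, with 22.7 ± 3.81 CPM per kb in NICD1/Akt livers and 3.93 ± 0.30 CPM per kb in controls of 3 weeks. Among the β chains of NICD1/Akt livers, Lamb2 stood at 9.91 ± 1.68, Lamb1 at 4.31 ± 0.79 and Lamb3 at 2.13 ± 0.70 CPM per kb.

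**Figure D3:**
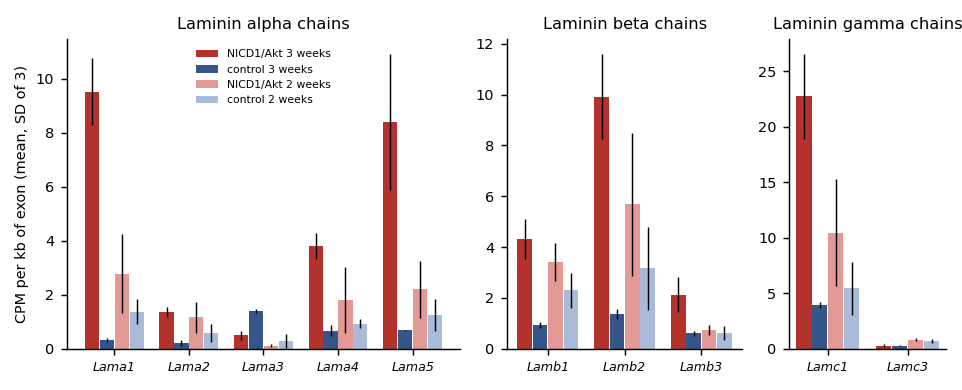
Level of 10 laminin chains in CPM per kilobase of exon (y axis, from 0), with bars as means of 3 libraries in each of the 4 groups and lines as SD. In NICD1/Akt livers of 3 weeks Lama1 (9.51) and Lama5 (8.39) are the tallest α chains, and Lama3 is the only α chain whose bar is tallest in the controls of 3 weeks.

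Most matrix-binding integrin chains had small fold changes. Of 11 chains, 10 were higher and Itga7 was not called, and the median log2 fold change was 0.81, below that of the epithelial chains. The lists were chosen with earlier results of these data known, and the difference between the medians was not tested. Itgb1, the common partner of most α chains and the most abundant integrin gene, had 301, 309 and 270 CPM in NICD1/Akt libraries, against 208, 202 and 204 CPM in controls, a log2 fold change of 0.52 ± 0.10 (adjusted p = 0.00163). Itga11, the collagen receptor chain of fibroblasts, was the exception in size, with 11, 9.31 and 6.62 CPM in NICD1/Akt libraries, against 0, 0.350 and 0.758 CPM in controls. Its log2 fold change was 4.57 ± 0.52 (adjusted p = 9.47e-05), on a total of 13 counts in the controls. Itga5, the fibronectin receptor chain, had 67.2, 76.8 and 52.2 CPM in NICD1/Akt libraries, against 36.0, 33.1 and 38.8 CPM in controls, with a log2 fold change of 0.86 ± 0.14 (adjusted p = 0.000764).

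Itgav, the α chain that all of Itgb3, Itgb5, Itgb6 and Itgb8 pair with, had 168, 220 and 160 CPM in NICD1/Akt libraries, against 71.9, 59.6 and 82.9 CPM in controls, with a log2 fold change of 1.35 ± 0.16 (adjusted p = 0.000126). Among its β partners, Itgb5 had 97.6, 105 and 102 CPM in NICD1/Akt libraries, against 57.9, 62.3 and 54.3 CPM in controls (log2 fold change 0.81 ± 0.09, adjusted p = 8.42e-05), and Itgb3 had 12.9, 12.8 and 8.30 CPM in NICD1/Akt libraries, against 6.26, 5.77 and 4.38 CPM in controls (log2 fold change 1.05 ± 0.22, adjusted p = 0.0027). Among these 4 β chains the log2 fold changes were therefore 0.81 for Itgb5, 1.05 for Itgb3 and 5.40 for Itgb8. That of Itgb6 was bounded only from below, at 5.72. Itga9 had 56.5, 54.3 and 54.8 CPM in NICD1/Akt libraries, against 31.4, 31.9 and 35.1 CPM in controls (log2 fold change 0.75 ± 0.08, adjusted p = 7.85e-05). Itga10, Itga8 and Itga1 were higher by 1.01, 0.71 and 0.35 on the log2 scale, and the calls of Itga1 and Itga8 were lost without control library 10, that of Itga1 also without NICD1/Akt library 1. Itga7, a laminin receptor chain known from muscle, had 7.39, 4.71 and 2.90 CPM in NICD1/Akt libraries, against 9.12, 9.62 and 6.66 CPM in controls, and the groups overlapped (log2 fold change -0.75 ± 0.32, adjusted p = 0.0627). It was called lower in 5 of 15 alternatives: DESeq2, the likelihood ratio test, without NICD1/Akt library 1, all 12 libraries in 1 fit (-0.87) and all 6 controls (-0.92). With library size alone as the scaling its log2 fold change was -0.046.

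Among the chains of leukocytes and platelets, 6 of 8 rose, Itga2b fell and Itgal was not called. The largest changes were those of Itgax and Itgam, the α chains CD11c and CD11b of dendritic cells, macrophages and other myeloid cells. Itgax had 9.84, 9.47 and 8.35 CPM in NICD1/Akt libraries, against 0.782, 0.962 and 1.26 CPM in controls, with a log2 fold change of 3.19 ± 0.22 (adjusted p = 6.26e-06). Itgam had 5.19, 8.06 and 5.60 CPM in NICD1/Akt libraries, against 0.956, 0.787 and 0.674 CPM in controls, with a log2 fold change of 2.96 ± 0.29 (adjusted p = 4.38e-05). Itgb2, the β chain that both share with the lymphocyte chain Itgal, had 18, 22.2 and 14.9 CPM in NICD1/Akt libraries, against 11.3, 9.09 and 10.1 CPM in controls. Its groups did not overlap, with a log2 fold change of 0.86 ± 0.17 (adjusted p = 0.00194).

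Itgal itself, the α chain of LFA-1, had 13.0, 15.2 and 14.2 CPM in NICD1/Akt libraries, against 17.9, 12.2 and 14.6 CPM in controls, and the groups overlapped (log2 fold change -0.08 ± 0.15, adjusted p = 0.67). With library size alone as the scaling Itgal was called higher (log2 fold change 0.63, adjusted p = 0.00769). That scaling shifted the median over all genes tested by 0.71. Itga4, which pairs with β1 or β7 on leukocytes, had 6.14, 5.52 and 5.09 CPM in NICD1/Akt libraries, against 1.74, 1.75 and 2.44 CPM in controls (log2 fold change 1.49 ± 0.22, adjusted p = 0.000354). Its partner Itgb7 averaged 2.45 ± 0.42 CPM in NICD1/Akt livers and 1.26 ± 0.49 CPM in controls (SD, n = 3 each, log2 fold change 0.95 ± 0.33, adjusted p = 0.0294), and its call was lost without any of control library 11 and NICD1/Akt libraries 1 and 3. Itgae, the α chain that binds E-cadherin, averaged 1.58 ± 0.26 CPM in NICD1/Akt livers and 0.43 ± 0.31 CPM in controls (log2 fold change 1.85 ± 0.49, adjusted p = 0.00838). Itga2b, the platelet chain, had 3.32, 2.7 and 1.48 CPM in NICD1/Akt libraries, against 3.74, 5.16 and 4.97 CPM in controls (log2 fold change -0.87 ± 0.31, adjusted p = 0.0302), and its call was lost without any of control libraries 11 and 12 and NICD1/Akt library 3. With library size alone as the scaling the log2 fold change of Itga2b was -0.17 (adjusted p = 0.64). Markers of leukocytes did not move as 1 block: all 6 markers of monocytes and macrophages tested were higher and all 4 Kupffer cell markers lower, the summed markers of T cells were 4.4 to 5.28 CPM in NICD1/Akt livers and 5.50 to 6.73 CPM in controls, and summed platelet markers were 0.795 to 1.52 CPM in NICD1/Akt livers and 0.862 to 1.42 CPM in controls. Summed neutrophil markers were 12.2 to 19.2 CPM in NICD1/Akt livers and 7.68 to 9.14 CPM in controls. Those of dendritic cells were 11.7 to 12.5 and 7.16 to 11.1 CPM, in the same order. B cell markers summed to 1.67 to 2.01 and 0.871 to 1.21 CPM, and NK cell markers to 0.417 to 0.748 and 0.348 to 1.21 CPM. The platelet, B cell and NK cell sums lay near the floor. Their part in these results was not tested.

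Itgbl1, a secreted protein with repeats like those of β chains, had 4.19, 4.03 and 4.12 CPM in NICD1/Akt libraries, against 0.261, 0.7 and 1.01 CPM in controls (log2 fold change 2.63 ± 0.35, adjusted p = 0.000222). Itgb3bp, a centromere protein also known as CENP-R, had 3.40, 5.48 and 3.06 CPM in NICD1/Akt libraries, against 1.39, 2.27 and 1.26 CPM in controls (log2 fold change 1.28 ± 0.34, adjusted p = 0.00825).

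Genes that work with integrins and laminins were read from the same fit at 3 weeks. Of 25 activators and linkers to actin, 14 were higher and 3 lower, against 38.9% and 33.1% of all genes tested. Their median log2 fold change was 0.47. Fermt1, the kindlin of epithelial cells, had 23.0, 28.4 and 29.3 CPM in NICD1/Akt libraries, against 0.956, 0.350 and 0.758 CPM in controls (log2 fold change 5.27 ± 0.25, adjusted p = 9.07e-07). By contrast the widely expressed kindlin Fermt2 was lower, with 127, 105 and 116 CPM in NICD1/Akt libraries, against 147, 138 and 154 CPM in controls (log2 fold change -0.34 ± 0.10, adjusted p = 0.0173). Tns3, a tensin, and Actn1, an actin crosslinker, were higher by 1.62 ± 0.09 and 2.67 ± 0.19 on the log2 scale, and Tns1 and Ptk2b had log2 fold changes of -1.76 ± 0.29 and -0.40 ± 0.10.

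Of 7 hemidesmosome and tetraspanin partners, 4 were higher and 2 lower, where 38.9% of all genes tested were higher and 33.1% lower. The tetraspanins Cd9 and Cd151 and the hemidesmosome collagen Col17a1 were higher by 2.97, 0.45 and 1.12 on the log2 scale. Plec and Dst, plakins that link α6β4 to keratin filaments but are expressed widely, had log2 fold changes of -1.34 ± 0.12 and -1.06 ± 0.19, with Plec at 173, 198 and 153 CPM in NICD1/Akt libraries, against 434, 457 and 434 CPM in controls. Of 13 basement membrane partners of laminin that were tested, 9 were higher and 1 lower, with a median of 1.76. Agrn (agrin), Sparc and the laminin receptor Bcam were higher by 2.75 ± 0.13, 2.63 ± 0.16 and 2.33 ± 0.14 on the log2 scale, and Smoc1 had a log2 fold change of -0.49 ± 0.09.

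All 17 integrin ligands tested other than laminin were called, 11 higher and 6 lower, where 38.9% of all genes tested were higher and 33.1% lower. Spp1 (osteopontin, also counted among the bile duct markers), Fbn1 and Mfge8, which carry the RGD motif read by αv integrins, were higher by 6.61 ± 0.21, 4.84 ± 0.22 and 3.18 ± 0.16 on the log2 scale. The 6 lower ones included plasma proteins that hepatocytes secrete: Fgb and Fgg, chains of fibrinogen, had log2 fold changes of -1.57 ± 0.18 and -1.62 ± 0.19, and Ecm1 one of -1.13 ± 0.12. Of 8 ligands of leukocyte integrins, 5 were higher and 1 lower. Madcam1, the ligand of α4β7, had 24.6, 29.7 and 23.7 CPM in NICD1/Akt libraries and no count in the 3 controls, which makes it at least 304-fold higher taking 3 counts over the 3 controls as the floor (adjusted p = 2.13e-06). Vcam1, bound by α4β1, and Icam1, bound by Itgal and Itgam with β2, were higher by 2.08 ± 0.17 and 1.56 ± 0.21, and Jam2 had a log2 fold change of -0.60 ± 0.12.

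At 2 weeks, the early stage, no member was called. In the fit of 13041 genes on the labelled groups (edgeR quasi-likelihood test), 0 of 37 members tested were higher and 0 lower, as were 0% of all genes tested, in either direction, and Itgb6 did not pass the filter on low counts. At an unadjusted p under 0.05, 8 members were higher (4.9% of all genes tested), and DESeq2 and the edgeR likelihood ratio test called 0 members too, with 12 and 13 members at an unadjusted p under 0.05, and 1459 and 1074 of all genes tested. The members leaned upward without passing: 32 of 37 log2 fold changes were above 0, with a median of 0.65 against 0.01 over all genes tested, and for 7 members the groups did not overlap, higher in NICD1/Akt, against 7.55% of all genes tested. These were Itga3, Itga5, Itga6, Itga9, Itgav, Itgb1 and Itgb2.

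Libraries 32 and 35 stood apart in the members as they did in the bile duct markers. Itgb4 had 12.2, 11.8 and 45.9 CPM in NICD1/Akt libraries 33, 34 and 35, against 0.947, 0.889 and 13.6 CPM in control libraries 30, 31 and 32. Control library 32 thus lay within the range of the NICD1/Akt libraries, and library 35 far above it. Itgb8 behaved alike, with 8.58, 12 and 31.2 CPM in NICD1/Akt libraries, against 1.33, 1.30 and 9.72 CPM in controls. Itga6 did not overlap, with 8.45, 10.3 and 23.0 CPM in NICD1/Akt libraries, against 6.06, 4.79 and 7.88 CPM in controls (log2 fold change 1.16 ± 0.42, adjusted p = 0.52).

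Of the 37 members tested, 24 were highest in library 35 among the 6 libraries of 2 weeks, where 32% of all genes tested were, and 23 were higher in library 32 than in libraries 30 and 31, where 41.5% of all genes were. With library 32 left out of the count, 21 of the 37 members had all NICD1/Akt libraries above both other controls, against 23.9% of all genes tested. In the fit without library 32, with 2 controls of 2 weeks left, 0 members were called and 17 had an unadjusted p under 0.05, as did 2418 of all 13239 genes tested. With the 5 controls of both stages other than library 32 as the reference, 13 members were higher and 0 lower in the edgeR quasi-likelihood test, against 6.68% of all genes higher. At an unadjusted p under 0.05 there were 21 members and 4127 of all 12988 genes. The 13 members included Itga3, Itga6, Itgb4 and Itgb8 of the epithelial chains, Itga9, Itgax and Itgb2, and the laminin chains Lama2, Lama5, Lamb1, Lamb2 and Lamc1, and in that fit the log2 fold changes were 4.34 for Itgb4 (adjusted p = 0.00713) and 3.93 for Itgb8 (adjusted p = 0.00768). This reference mixes stages and, by Ddx3y, sexes. With all 6 controls 0 members were called, with 18 members and 3074 of all 13128 genes at an unadjusted p under 0.05.

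**Figure D4:**
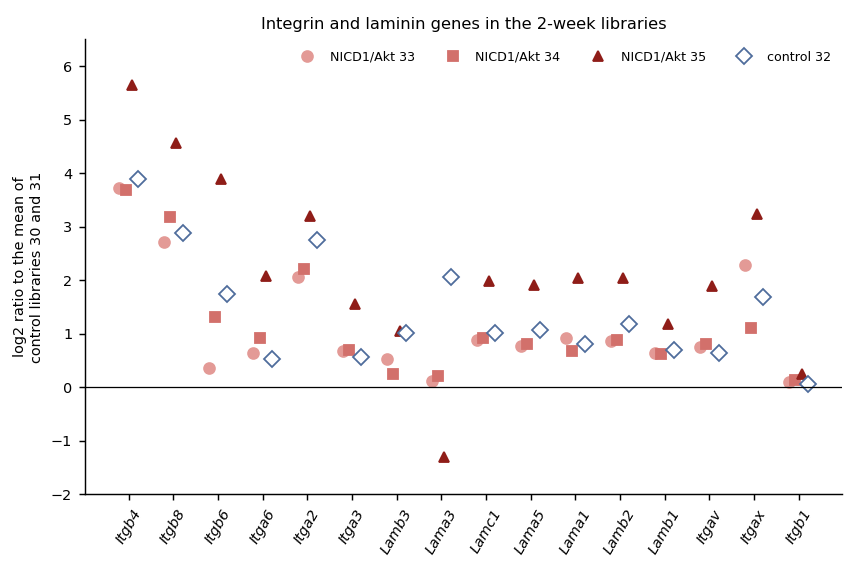
Log2 ratio of each 2-week library to the mean of control libraries 30 and 31 (y axis) for 16 members, with circles, squares and triangles for NICD1/Akt libraries 33, 34 and 35 and open diamonds for control library 32. Control library 32 lies close to NICD1/Akt libraries 33 and 34 for most genes, library 35 lies above them for most, and Lama3 is highest in library 32 and lowest in library 35.

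Lama3 was not called at 2 weeks, with 1.51, 1.62 and 0.570 CPM in NICD1/Akt libraries, against 1.64, 1.16 and 5.89 CPM in controls (log2 fold change -1.24, adjusted p = 0.52). Its highest value at that stage was that of library 32, and controls 30 and 31 lay within the range of the NICD1/Akt libraries or close to it. Without library 32 the log2 fold change was -0.22 (adjusted p = 0.84).

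The difference to the controls was larger at 3 than at 2 weeks for 11 of the 38 members and smaller for 0, when both stages were fitted together, against 15% and 15.8% of all 13829 genes tested (edgeR quasi-likelihood test). At an unadjusted p under 0.05 there were 21 members and 6338 of all genes tested. DESeq2 called 20 members larger and 0 smaller, against 19.6% and 17.8% of all genes, and the edgeR likelihood ratio test 19 and 0, against 18.8% and 16.4%. The 11 were 5 laminin chains of the common trimers (Lama1, Lama5, Lamb1, Lamb2 and Lamc1), Lamb3, the epithelial chains Itga6, Itgb6 and Itgb8, and Itgb5 and Itga4. Scaling by library size alone moved the median of all genes by 0.61 and gave 25.5% higher and 2.15% lower, with 18 members higher and 0 lower. Without control library 32, 6 members were called, all larger (Itga6, Itgb5, Lama1, Lama5, Lamb1 and Lamb2), against 10.1% of all genes larger and 10.9% smaller. Without NICD1/Akt library 35, 22 members were called, 21 of them larger at 3 weeks. Without control library 10 of 3 weeks, 5 were called, so the count depended on libraries of both stages. Shares of all genes called without library 35 or without library 10 are not given, so these counts cannot be set against all genes.

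Lama1 had the clearest difference between the stages. On the scale of all 12 libraries it had 87.8, 106 and 82.8 CPM in NICD1/Akt libraries of 3 weeks, against 2.16, 3.83 and 3.42 CPM in their controls, and 20.3, 17.1 and 43.1 CPM in NICD1/Akt libraries of 2 weeks, against 10.2, 11.2 and 18.7 CPM in theirs. The log2 fold changes differed by 3.85 ± 0.52 (adjusted p = 0.00172), and Lama1 was at once higher in NICD1/Akt livers (1.76 on the log2 scale) and lower in controls (-2.09) at 3 than at 2 weeks. For Lama5 the difference was 2.78 ± 0.53 (adjusted p = 0.00619), for Itga6 2.47 ± 0.53 (adjusted p = 0.0102), for Lamb2 1.99 ± 0.53 (adjusted p = 0.0207), for Lamb1 1.65 ± 0.32 (adjusted p = 0.00696), for Lamc1 1.59 ± 0.47 (adjusted p = 0.0289) and for Lamb3 1.55 ± 0.47 (adjusted p = 0.0328).

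For Itgb5 the stages differed in the controls. It had 89.1, 96.9 and 94.0 CPM in NICD1/Akt libraries of 3 weeks, against 57.5, 62.1 and 53.7 CPM in their controls, and 95.8, 93.3 and 102 CPM in NICD1/Akt libraries of 2 weeks, against 103, 106 and 101 CPM in theirs. The NICD1/Akt libraries of both stages lay in 1 range and the controls of 3 weeks stood below all others. The log2 fold changes of Itgb5 differed by 0.78 ± 0.12 (adjusted p = 0.00277), and those of Itga4 by 0.94 ± 0.30 (adjusted p = 0.0352). Itgb8 differed by 3.20 ± 1.10 (adjusted p = 0.0483), and the 7.29 ± 2.24 of Itgb6 (adjusted p = 0.0389) depends on the prior count, since its controls of 3 weeks had no count. The calls of Itgb8 and Itgb6 were each lost in 10 of 18 alternatives to the main fit, and that of Itga4 in 9.

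**Figure D5:**
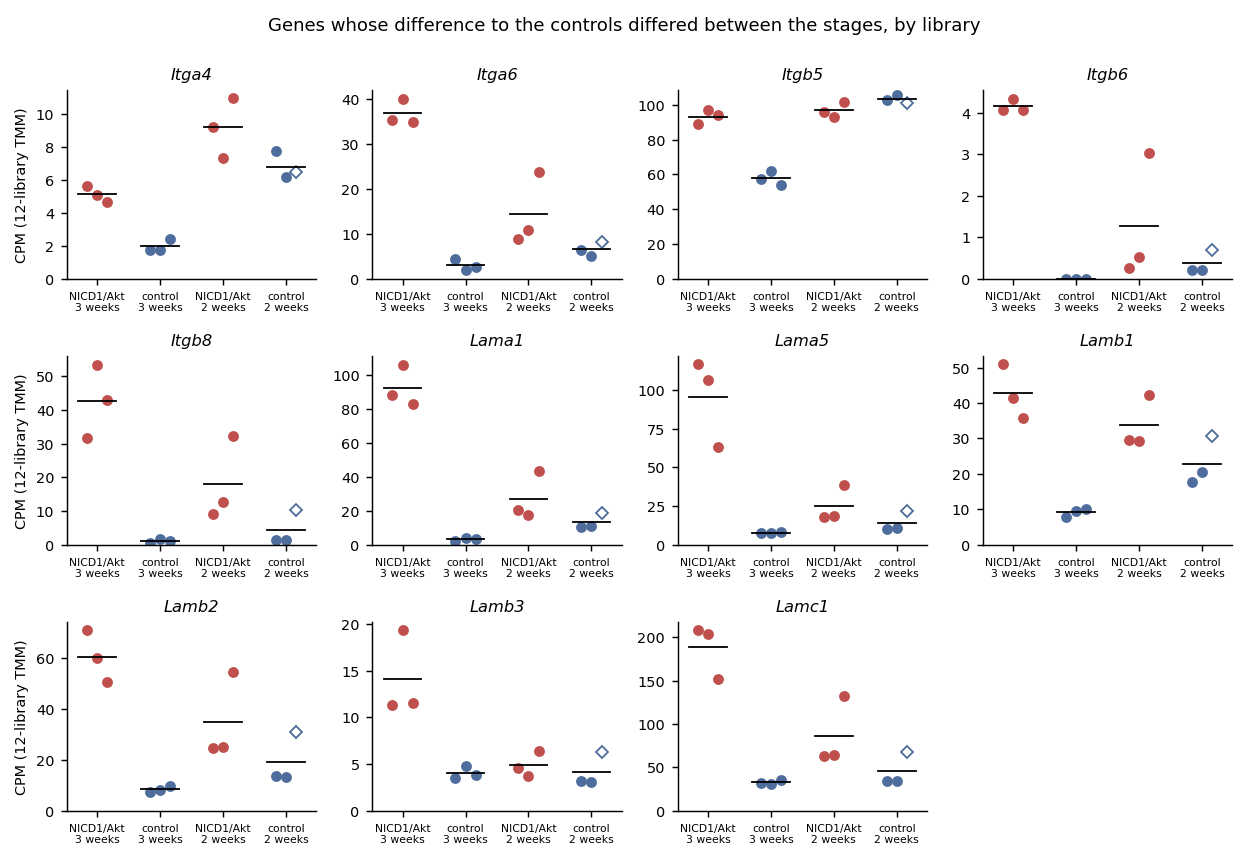
CPM scaled over all 12 libraries (y axis, from 0) for the 11 members called in the difference between stages, with a point for each library, a black line at the group mean and an open diamond for control library 32. For Lama1, Lama5 and Itga6 the NICD1/Akt points of 3 weeks are the highest and the controls of 3 weeks the lowest. For Itgb5 and Itga4 the controls of 3 weeks are the lowest too, but the NICD1/Akt points of 3 weeks are not the highest.

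Between the stages of the model itself, 10 members were higher and 5 lower at 3 than at 2 weeks in NICD1/Akt livers, against 11.1% and 17.4% of all genes tested. Lama5, Lama1, Lamb3, Lamc1 and Lama3 were higher among laminins, by 1.91 ± 0.37, 1.76 ± 0.34, 1.52 ± 0.33, 1.11 ± 0.33 and 2.08 ± 0.58 on the log2 scale, and Itga2, Itga11, Itgam, Itga6 and Itgav among integrin chains, by 2.73, 2.52, 1.47, 1.33 and 1.23. Lama3 had 6.18, 3.29 and 6.5 CPM at 3 weeks, against 1.59, 1.70 and 0.59 CPM at 2 weeks. The leukocyte and platelet chains Itgal, Itga2b and Itga4 were lower, with log2 fold changes of -1, -0.88 and -0.85, as were Lamc3 with -1.62 and Itga9 with -0.35, the last with 0.09 under scaling by library size. Itgal, Itga2b and Itga4 had -0.51, -0.43 and -0.46 under scaling by library size and were no longer called. That scaling moved all genes by 0.43 and gave 24.8% higher and 6.80% lower, with 13 members higher and 1 lower.

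The controls differed between the stages too. In controls 2 members were higher and 13 lower at 3 than at 2 weeks, against 17.4% and 20.4% of all genes tested. Lama3 and Itgav were the higher ones, Lama3 with 15.9, 15.3 and 14.2 CPM at 3 weeks, against 1.72, 1.22 and 6.17 CPM at 2 weeks (log2 fold change 2.32 ± 0.56, adjusted p = 0.00804). The 13 lower members were Itga4, Itga6, Itga8, Itga9, Itga10, Itgb3, Itgb5, Itgb7, Lama1, Lama2, Lamb1, Lamb2 and Lamc3, of which Itgb5 fell by 0.84 ± 0.09 (adjusted p = 7e-05) and Itga4 by 1.79 ± 0.22 (adjusted p = 0.000167) on the log2 scale. Of the members also called between the NICD1/Akt stages, Lama3 and Itgav were higher and Itga4, Itga9 and Lamc3 lower at 3 weeks in both, and Itga6 and Lama1 were higher in NICD1/Akt livers and lower in controls. Without library 32, 2 were higher and 10 lower, with Itga6, Lama2 and Lamb2 no longer called, against 15.2% and 17.5% of all genes tested. Under scaling by library size 1 was higher and 12 lower, where all genes gave 9.29% higher and 22.1% lower. Stage and sex cannot be told apart in these controls.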

How the data were processed

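Poly(A) RNA of mouse liver was sequenced in 12 stranded libraries. The deposited tables hold read counts per gene and library that the authors made. By the study's methods, reads were trimmed with TrimGalore, aligned to mm10 with STAR and counted with HTSeq. The processing notes of the submitters list STAR 2.7, Subread 2.0.6 and GRCm39. Which of them made the counts was not settled, so no gene coordinates were taken from the tables. Groups came from the labels, with 3 libraries each and 13136892 to 19594839 counts per library, which sets the precision of low genes.

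Counts were filtered (filterByExpr), scaled by TMM and tested across all genes of a stage, or of all 12 libraries for comparisons between stages, with the edgeR 4.0.16 quasi-likelihood test in R 4.3.3 and Benjamini-Hochberg adjustment at 0.05. SE is the log2 fold change divided by the root of F. Within a stage, CPM used that stage's TMM factors, otherwise those of all 12 libraries. CPM per kb used GENCODE exon lengths. No repeated deposit was found among replicates. The test was checked on simulated counts. Alternatives were DESeq2 1.42.0, the edgeR likelihood ratio test, other scalings, filters and controls, and leaving out each library. Every member was to be named (1 is not reported here), and from each partner list up to 3 higher and 3 lower genes with the smallest adjusted p. Members and lists were chosen with earlier results of these data known. Overlapping or near-identical genes could share reads, which was not checked.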

Additional observations from a re-analysis of the deposited data

Results flagged for a closer look

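For 11 members the log2 fold change of NICD1/Akt over control differed between the stages, by a test of the difference itself (edgeR quasi-likelihood test, adjusted p under 0.05, 3 weeks minus 2 weeks). Among laminin chains it was larger at 3 weeks by 3.85 for Lama1, 2.78 for Lama5, 1.99 for Lamb2, 1.65 for Lamb1, 1.59 for Lamc1 and 1.55 for Lamb3. Among integrin chains it was larger by 2.47 for Itga6, 3.20 for Itgb8, 0.94 for Itga4 and 0.78 for Itgb5. The 7.29 of Itgb6 depends on the prior count. Control library 32 of 2 weeks, which carried bile duct markers and a high Akt1 level, enters each of these differences. Without it the difference was 3.54 for Lama1, 2.35 for Lama5, 2.28 for Itga6, 1.5 for Lamb2, 1.40 for Lamb1 and 0.81 for Itgb5, all still called. The other 5 were no longer called, with 6.51 for Itgb6, 1.58 for Itgb8, 1.18 for Lamc1, 1.15 for Lamb3 and 0.99 for Itga4. Library 32 was not the only dependence. Of 18 alternatives, the call was lost in 10 for Itgb6 and for Itgb8, 9 for Itga4, 8 for Lamc1, 6 for Lamb3 and 2 for Lamb2. It was kept in all 18 for Lama1, Lama5, Lamb1, Itga6 and Itgb5.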

How the results depend on the processing

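At 3 weeks 527 of 570 values of single members over the alternatives kept their direction and their side of the threshold, 31 lost the call, 5 gained one and 7 changed sign. The 5 gained calls were all of Itga7, as lower. The sign changed only for members with small changes in the main fit. Itga8 had -0.047 against all 6 controls. Itgal had 0.63 with library size only, where it was called higher (adjusted p = 0.00769). Over libraries left out it had between -0.21 and 0.066 (0.066 without control library 10). Lamc3 had between -0.19 and 0.48 over libraries left out, with -0.19 without NICD1/Akt library 1 and -0.015 without control library 10. It had -0.79 against all 6 controls and -0.64 against 5 controls without library 32. Between NICD1/Akt stages Itga9 had 0.090 with library size only. The number of members called moved by over 1.5 times at 2 weeks, where the 5 controls without library 32 gave 13, and in the difference between stages, where DESeq2 gave 20, the likelihood ratio test 19 and library size only 18. Leaving out each library in turn gave 33 to 35 members called at 3 weeks, 0 to 0 at 2 weeks, 5 to 22 in the difference between stages, 5 to 25 between NICD1/Akt stages and 11 to 19 between control stages. The lowest value in the difference, 5, came without control library 10 and the highest, 22, without NICD1/Akt library 35. Between NICD1/Akt stages, 5 were called without library 33, 7 without library 2, 9 without library 34 and 25 without library 35. Shares of all genes are not given beside these counts and ranges, so whether all genes moved alike cannot be read from them. The number of members was 39 at a limit of 0.1 CPM and 38 at 1 CPM. The cause of these changes was not tested. No paired analysis was possible because the groups share no replicate numbers.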
